A study of Homo sapiens with 20 samples.

Results

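N6-methyladenosine (m6A) peaks were examined on the transcripts of 43 genes of DNA crosslink repair, homologous recombination, translesion synthesis and mismatch repair in bladder cancer cells. The members were the genes of a list, and a peak was counted as theirs when its summit, the base of highest enrichment, lay in an exon of the gene in GENCODE 44 on hg38. Of 231465 peaks in 10 peak lists, 840 met this rule. They fell in 126 of the 43676 regions obtained when the lists were merged, and 40 of the 43 genes had at least 1 such peak. FANCD2, ATM and RAD18 had none.

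The lists came from methylated RNA immunoprecipitation sequencing (MeRIP-seq) of T24, a human bladder cancer line that is sensitive to cisplatin, and T24R2, a resistant line obtained from T24 by stepwise exposure to the drug and maintained in medium with cisplatin. Both lines carry the genotype label WT and were grown in RPMI with serum until day 3. There were 5 pull-down libraries of each line, made with an anti-m6A antibody, and 5 input libraries of each line without antibody, which served as background in the authors' peak calling. T24R2 is 1 derived line, so resistance, drug exposure and divergence in culture cannot be told apart, and the labels do not say that replicates were separate cultures, so p-values measure the spread between libraries, which may be technical. The lists held 17203 to 22901 peaks in T24 and 22671 to 33120 in T24R2, the most in T24R2 replicate 5, and read depth is unknown. Of 16 urothelial and epithelial marker genes, 6 had an exonic peak in any library and KRT7 and FOXA1 had one in all 10, while GATA3 had one in 5 of 5 T24 and 0 of 5 T24R2 libraries. Of 7 markers of other cell types, PECAM1 was marked in all 10 libraries and COL1A1 in 1. A missing peak does not show a missing transcript.

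m6A is a methyl mark on adenosine inside messenger RNA. It is set by a methyltransferase complex in the sequence context DRACH, where D stands for any base but C, R for a purine and H for any base but G, read by YTH domain proteins, and known for its part in RNA decay, splicing and translation. It is concentrated in long internal exons and around stop codons. Cisplatin links bases within and between DNA strands. Links between strands are opened by the Fanconi pathway, in which a core complex places ubiquitin on FANCD2 and FANCI and nucleases held by SLX4 cut the DNA. Translesion polymerases then fill the gap, and homologous recombination, led by BRCA1, PALB2 and BRCA2, repairs the resulting break. Mismatch repair proteins recognise platinum adducts and take part in the signalling that follows.

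The sequences below show the DRACH match closest to the median summit in 9 of the 12 most enriched repair gene regions among those called in all libraries. They are shown to give the local sequence under the most enriched repair gene peaks. Each is a window of 27 bases read from hg38 in the sense of the gene, 5′ to 3′, with the 5-base DRACH match in capitals. A match is a description and not a mapped site.
FANCC (exon of a noncoding transcript, chr9:95415854-95415880, minus strand): ctgtgtaccatGAACTtaatcagccat
MLH3 (CDS, chr14:75049194-75049220, minus strand): gtaacagtgtaTAACCtattttaccag
BRCA2 (CDS, chr13:32333117-32333143, plus strand): tcacagaaggaGGACTccttatgtcca
XRCC2 (CDS, chr7:152648807-152648833, minus strand): gatgtggacatAGACTacagaccttat
BLM (CDS, chr15:90749871-90749897, plus strand): aaacacagtaaAGACTgatttgcctcc
FANCA (CDS, chr16:89739211-89739237, minus strand): catgttgctgtGGACAtgtacttgaag
FANCE (CDS, chr6:35456093-35456119, plus strand): aaacgcagaaaGGACTcagaggaagag
SLX4 (3′UTR, chr16:3581409-3581435, minus strand): cagcagtctccAAACTggacagtgcac
PMS1 (CDS, chr2:189863987-189864013, plus strand): ttttctatgaaAAACTtaaaaataaat
Of the 53 regions called in all 10 libraries, 50 had a DRACH match on the gene's strand within 50 nt of the median summit, at a median distance of 10 nt. In 11 of these the match held the letters GGAC, as in the BRCA2, FANCE and FANCA windows. The FANCA region overlaps ZNF276 on the other strand, and the lists carry no strand, so that peak can belong to either gene.

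Repair genes were marked more widely than protein-coding genes in general. At least 1 exonic peak was found in 40 of the 43 genes (93%) against 51.1% of 20046 protein-coding genes, and a peak in every library was found in 28 genes (65.1%) against 27.5%. A further list of 67 genes that act in the same pathways lay between, with 46 (68.7%) marked in any library and 35 (52.2%) in all 10. These shares are descriptions and were not tested, and transcript levels were not analysed here. The canonical transcripts of the 43 genes had a median length of 5096 nt against 2885 nt for all protein-coding genes.

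The groups differed in how completely they were marked, as the grid of peak counts by gene and library shows. All 5 genes of the BRCA group carried a peak in every library, namely BRCA1 and its partner BARD1, the bridging protein PALB2, the recombination mediator BRCA2 and the helicase BRIP1. The 4 genes of helicases and end protection did so too, with BLM and WRN as RecQ helicases and TP53BP1 and RIF1 as factors that limit end resection. Among the 11 Fanconi genes 8 were marked in all 10 libraries, 2 in some (FANCG and FANCI) and FANCD2 in none. In mismatch repair, 5 of 6 were marked throughout and MSH3, which recognises larger loops, was marked in 4 libraries. Of 5 genes of translesion and end joining synthesis, REV1, REV3L and POLQ were marked in all 10, POLH in 9 and the ubiquitin ligase RAD18 in none.

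The sparse groups were the break sensors, RAD52 with related recombination factors, and the checkpoint kinases. In the MRN complex, which senses and trims broken ends, NBN was marked in all 10 libraries, MRE11 in 4 and RAD50 in 3. Among RAD52 and the related factors, which act in homologous recombination, only XRCC2 of 5 genes reached all 10 libraries. RAD51D reached 9, RAD51C 7, XRCC3 6 and RAD52 3. Of the 4 checkpoint kinases, ATR was marked in all 10, CHEK1 in 5, CHEK2 in 2 and ATM in none.

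**Figure D1:**
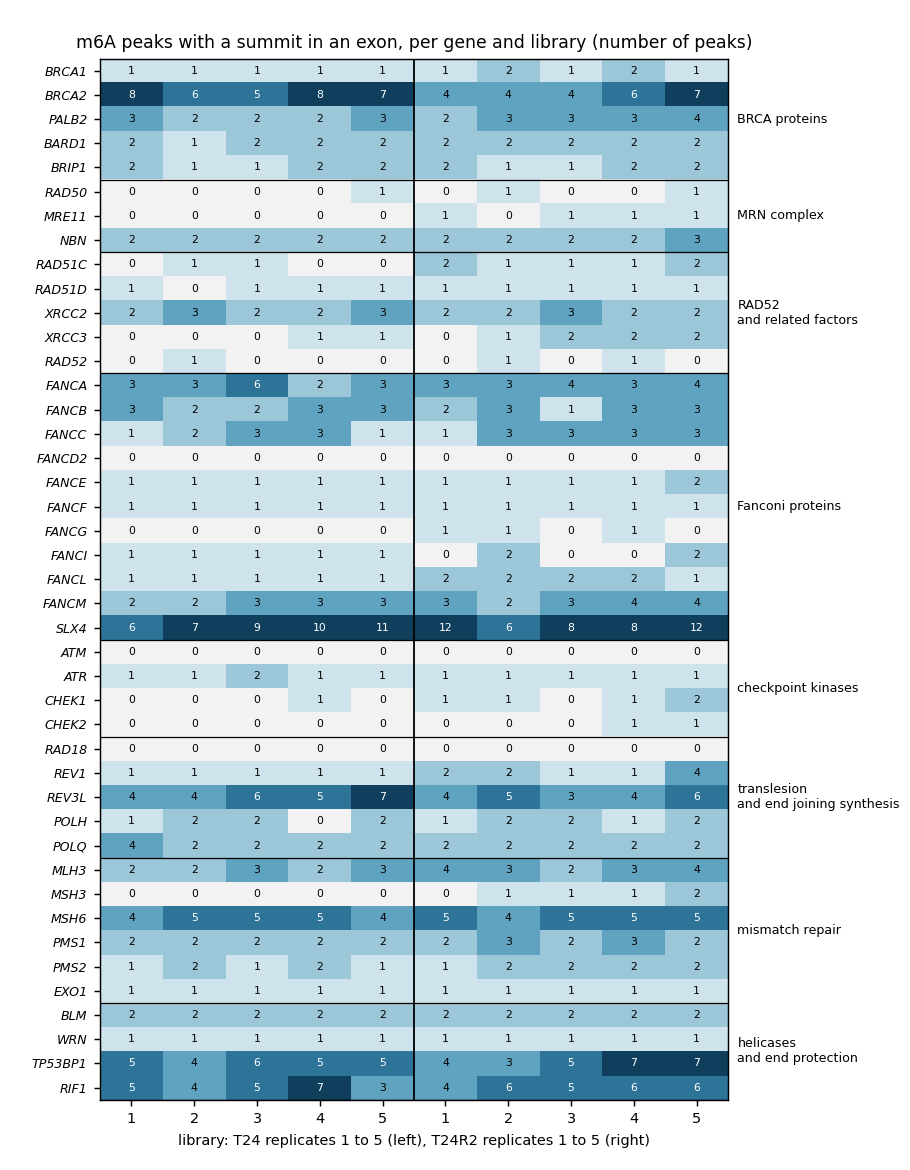
Number of m6A peaks with a summit in an exon, for each of the 43 repair genes (rows, in 8 groups) in each of the 10 pull-down libraries (columns). SLX4 had 6 to 12 peaks per library, the 5 BRCA genes had at least 1 in every library, and FANCD2, ATM and RAD18 had 0 throughout.

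The number of peaks per gene was uneven. SLX4, the scaffold for nucleases that cut crosslinked DNA, had 89 peaks in 12 regions, of which 6 were called in all 10 libraries. BRCA2 had 59 peaks in 8 regions, TP53BP1 51 in 9, RIF1 51 in 6, REV3L 48 in 7 and MSH6 47 in 4. All 4 MSH6 regions were called in every library, although the one past the end of its canonical exons also lies in an exon of FBXO11. At the other end, WRN, FANCF and EXO1 had exactly 1 peak in each of the 10 libraries.

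Most of these peaks lay in coding sequence. By library, 76.6% ± 3.90 (SD, n = 10) of the repair gene peaks were in CDS and 16.7% ± 3.00 in 3′UTR, against 56.2% ± 0.877 and 31.9% ± 0.728 of all peaks in exons of protein-coding genes. The CDS share was above that of all genes in each of the 10 libraries, with 71.0% as the lowest value in repair genes and 57.5% as the highest in all genes. By line the CDS share was 79.5% ± 2.17 in T24 and 73.8% ± 3.12 in T24R2 (n = 5 each), and the ranges overlapped (75.9% to 81.1% and 71.0% to 78.8%). These shares were not tested, since the genes were chosen with earlier results known and peaks of 1 region recur in several libraries. The median coding length was 3411 nt in the 43 genes against 1269 nt in all protein-coding genes, and the shares are not corrected for it.

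The coding peaks sat in long internal exons rather than near stop codons. On canonical transcripts, 49 pairs of a repair gene and a region called in all 10 libraries were found. Of these, 38 (77.6%) lay in an internal exon and 10 (20.4%) in the last exon, against 32.7% and 58.9% for all protein-coding genes. Only 7 (14.3%) had the median summit within 400 nt of the end of the coding sequence, against 40.3% for all genes. The internal exons that held such a region had a median length of 932 nt in repair genes and 655 nt in all genes, and 35 of the 38 were at least 400 nt long. Repair genes also have more such exons. An internal exon of at least 400 nt is present in 51.2% of them against 18.3% of all protein-coding genes. These exons hold 18.5% against 6.33% of transcript bases, and the shares above are not corrected for this.

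The map of regions along the transcripts shows where these exons are. BRCA2 exon 11 (4932 nt), which encodes the BRC repeats, held 4 regions, of which 1 was called in all 10 libraries. BRCA1 exon 10 (3426 nt) held 1 region, called in all 10. MLH3 exon 2 (3343 nt) and SLX4 exon 12 (2309 nt) each held 2 regions called in every library, as did MSH6 exon 4 (2545 nt), POLQ exon 16 (3107 nt) and REV3L exon 13 (4162 nt). RIF1 exon 30 (3237 nt) held 4 regions with 1 in all 10.

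**Figure D2:**
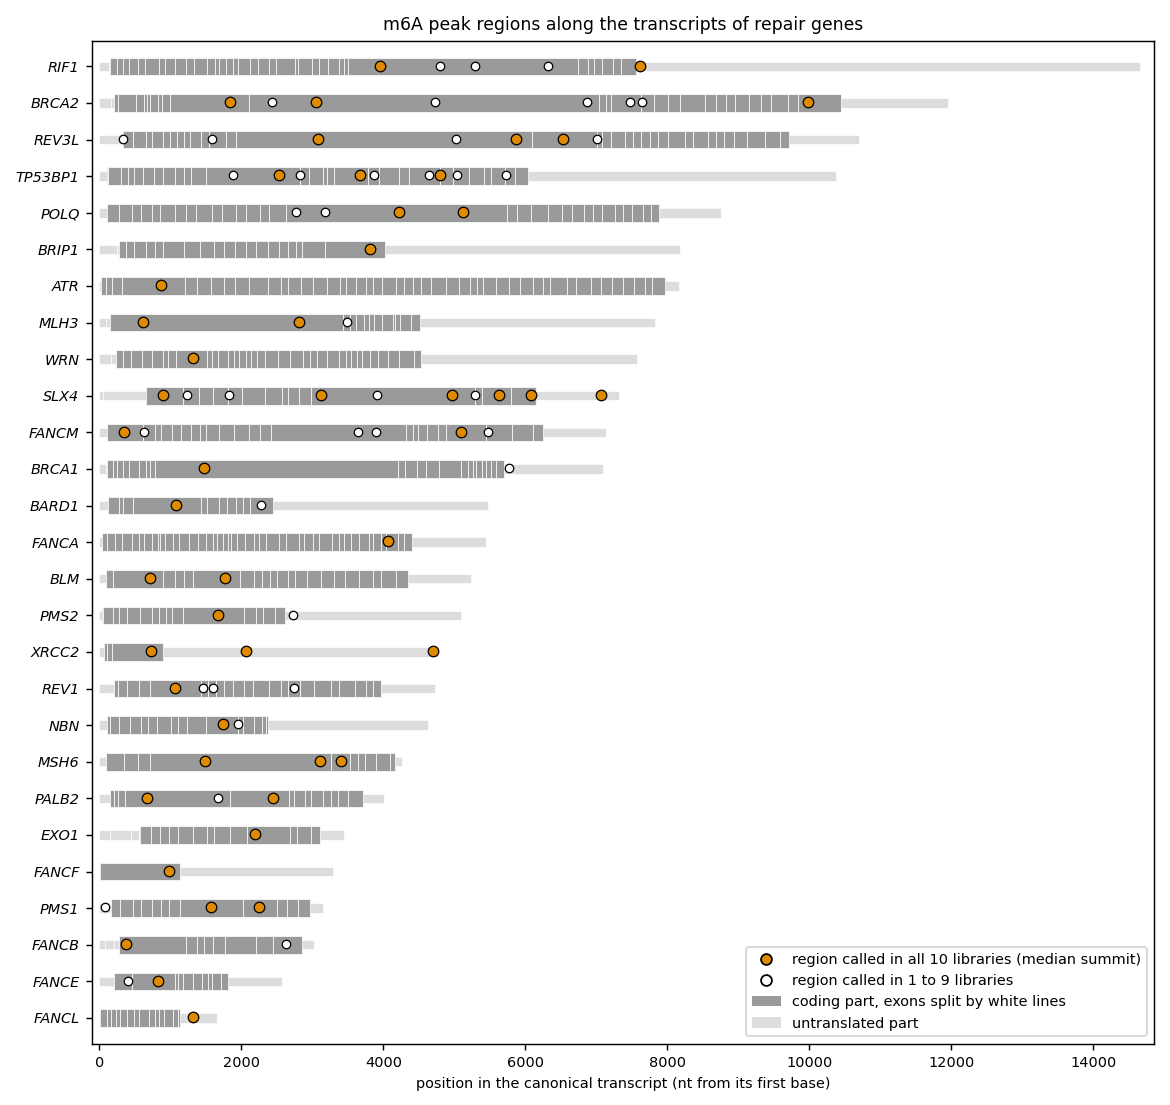
m6A regions on the canonical transcripts of the 27 repair genes that had a region called in all 10 libraries within canonical exons. The x axis is the position in the transcript in nt, wide dark bars are coding sequence with exons split by white lines, narrow light bars are untranslated sequence, filled circles are regions called in all 10 libraries and open circles are regions called in fewer. Filled circles gather in the long unbroken blocks, 35 of 38 internal ones in exons of at least 400 nt. The FANCA circle is the median over summits in several exons.

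Nearly every long internal exon of a repair gene carried a peak. The 43 genes have 34 internal exons of at least 400 nt, in 22 genes. A summit was found in 33 of them (97.1%) in at least 1 library and in 30 (88.2%) in all 10. For all protein-coding genes with a peak anywhere, the shares were 84.6% and 49.4% of 3523 such exons. Of 766 shorter internal exons in repair genes, 24 (3.13%) had a summit in any library and 1 (0.131%), MSH6 exon 5 (266 nt), in all 10. For all protein-coding genes with a peak, these shares were higher, at 7.17% and 0.314% of 93921 shorter internal exons. The cutoff of 400 nt was chosen after the data were seen.

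The exceptions among the long exons were few. FANCB exon 8 (431 nt) had no summit. FANCM exon 14 (1906 nt), in the gene of the translocase that anchors the core complex, had a summit in 2 libraries, both of T24R2, while the shorter FANCM exon 20 (561 nt) had one in all 10. BRCA2 exon 14 (428 nt) was marked in 9 libraries and TP53BP1 exon 21 (431 nt) in 8. All 22 genes with a long internal exon had a region called in every library, and 6 of the 21 genes without one did (28.6%), namely BRIP1, XRCC2, FANCA, FANCC, FANCF and FANCL. Over all protein-coding genes with a peak, these shares were 70.5% and 49.2%. The bases differ, since the 21 repair genes include FANCD2, ATM and RAD18, which had no exonic peak. With the cutoff at 300 nt, 23 of 26 genes with a long internal exon had such a region, and at 600 nt 19 of 19. Among genes without one, 5 of 17 (29.4%) did at 300 nt and 9 of 24 (37.5%) at 600 nt. Over all protein-coding genes with a peak, the shares with and without one were 65.1% and 49.5% at 300 nt. At 600 nt they were 73.6% and 50.7%.

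**Figure D3:**
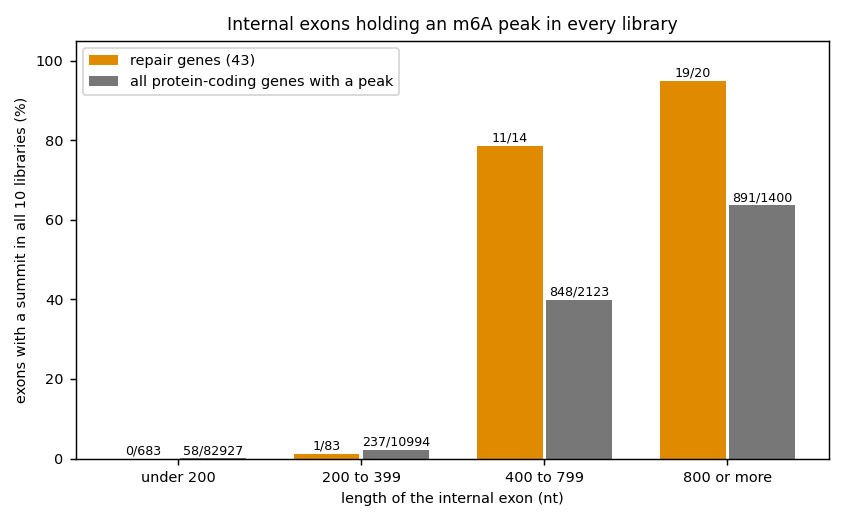
Share of internal exons with an m6A summit in all 10 libraries (y axis, %) by exon length in nt (x axis), for the 43 repair genes and for all protein-coding genes with a peak, with exon counts above the bars. Among exons of 800 nt or more the shares were 95% (19 of 20) and 63.6% (891 of 1400), and under 200 nt they were 0 of 683 and 58 of 82927.

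The 15 genes without a region called in all libraries were RAD51C, RAD51D, XRCC3, RAD52, MRE11, RAD50, FANCD2, FANCG, FANCI, ATM, CHEK1, CHEK2, RAD18, POLH and MSH3. None of these has an internal exon of 400 nt, and the longest is in ATM (372 nt). A long last exon did not go with a region in every library in several of them. RAD51D has a last exon of 8816 nt and POLH one of 6864 nt, and the regions there were called in 9 libraries each. The MRE11 3′UTR region was called in 3 libraries, all T24R2.

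The DRACH context was present under most summits. The DRACH and GGAC shares here and below leave out summits that lie in exons of genes on both strands. Within 50 nt of the summit, 94.9% ± 1.91 of repair gene peaks in T24 and 94.2% ± 1.47 in T24R2 had a match on the gene's strand (SD, n = 5 each), against 68.9% ± 2.16 and 73.8% ± 1.31 on the opposite strand of the same windows. For all exonic peaks the sense shares were 90.6% ± 0.928 and 90% ± 0.771. The core GGAC was less frequent in repair genes, at 39.4% ± 4.37 over 10 libraries against 48.4% ± 1.51 for all exonic peaks, and its share was lower in each of the 10 libraries. The same regions recur across libraries, so these 10 differences are not independent, and no test was made.

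Enrichment was compared by rank, because the fold enrichment of a peak (pull-down over local input, as given by the authors' peak caller) can depend on depth. Each peak received its fold percentile, its position among all peaks of its own library from 0 to 100, and a region took its strongest peak. The 53 repair gene regions called in all 10 libraries had median percentiles from 12.3 to 98.1, with a median of 63.6 against 70.4 for all 9577 such regions. The lowest was the region in BRCA1 exon 10, with folds of 3.41 to 7.42. It was marked in every library and ranked low.

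The highest rank was in the Fanconi core gene FANCC (chr9:95415208-95416207), in an exon of a noncoding FANCC transcript that lies outside the canonical one. Its fold percentiles were 99.3, 97.5, 94.6, 99.5 and 97.3 in T24 and 98.7, 88.8, 83.0, 99.2 and 98.9 in T24R2, with folds of 10.3 to 26.4. The FANCA region, which spans several of the last exons (chr16:89737568-89740849), had percentiles of 88.3, 95.4, 94.1, 81.7 and 75.4 in T24 and 72.8, 90.2, 87.7, 94.4 and 91.8 in T24R2. Both stayed in the upper part of every list and the lines overlapped. FANCE, another core complex gene, was strong but variable in exon 2 (chr6:35455647-35456322), with 94.2, 23.9, 24.1, 98.6 and 13.3 in T24 and 85.6, 96.4, 88.1, 98.7 and 56.6 in T24R2. The 3 low T24 values, 13.3 to 24.1, stood apart from the other 2, and the lines did not differ beyond this spread (difference 34.3, exact permutation p = 0.135).

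SLX4 had 2 of the highest ranks, both in its last exon. In the 3′UTR (chr16:3581048-3581778), percentiles were 47.5, 93.5, 97.6, 70.8 and 81.0 in T24 and 92.0, 95.3, 84.8, 84.0 and 71.7 in T24R2. At the end of the coding sequence (chr16:3581998-3582726), they were 67.7, 87.1, 78.2, 85.1 and 28.4 in T24 and 83.7, 82.0, 82.8, 95.7 and 75.1 in T24R2. In each, 1 T24 library was lowest (47.5 and 28.4), and the ranges of the lines overlapped.

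Among recombination genes, BRCA2 exon 10 (chr13:32332719-32333332) and XRCC2 ranked highest. The BRCA2 region, with its summit 1637 nt downstream of the first coding base in an exon of 1116 nt, had percentiles of 89.1, 80.3, 18.2, 95.4 and 88.0 in T24 and 97.2, 92.5, 96.7, 92.0 and 96.0 in T24R2. All 5 T24R2 values lay between 92.0 and 97.2, and T24 replicate 3 was at 18.2. XRCC2 has its coding end and long 3′UTR in exon 3 (4588 nt). The CDS region (chr7:152648612-152649285) was at 96.1, 78.3, 94.0, 91.6 and 92.3 in T24 and 96.4, 84.3, 89.1, 89.9 and 98.0 in T24R2, and the 3′UTR region (chr7:152646252-152647972) at 91.6, 88.7, 70.4, 96.2 and 45.4 in T24 and 83.1, 87.9, 83.2, 83.0 and 61.3 in T24R2. The means of both XRCC2 regions differed between the lines by 1.08 and 1.29 points, less than the spread between replicates. The helicase gene BLM was among the steadiest, in exon 3 (chr15:90749399-90750061), at 87.8, 93.0, 97.2, 89.7 and 96.7 in T24 and 97.6, 88.5, 96.2, 78.6 and 90.6 in T24R2.

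In mismatch repair, the endonuclease partner MLH3 ranked highest. Its 5′ region in exon 2 (chr14:75048590-75049631) had percentiles of 70.4, 96.0, 77.9, 98.3 and 99.1 in T24 and 60.7, 94.6, 97.8, 41.1 and 93.8 in T24R2. PMS1 exon 10 (chr2:189863664-189864211) was at 91.2, 82.3, 34, 45.2 and 85.2 in T24 and 84.2, 86.1, 58.1, 91.0 and 27.1 in T24R2. Both ran over a wide range in each line. The translesion scaffold REV1 was narrower in exon 6 (chr2:99438577-99439418), at 81.6, 77.6, 70.1, 92.2 and 90.6 in T24 and 70.7, 83.9, 64.7, 93.7 and 90 in T24R2. For MLH3, PMS1 and REV1 the difference between lines was within the replicate spread (exact permutation p = 0.421, 0.897 and 0.810).

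The comparison of the lines asked whether marking of repair transcripts differed between resistant and sensitive cells. More repair genes were marked per library in T24R2. There were 31, 32, 32, 32 and 33 marked genes in the T24 libraries and 34, 38, 34, 38 and 38 in the T24R2 libraries, with means of 32 ± 0.707 and 36.4 ± 2.19, and the lines did not overlap. The same direction was seen over all protein-coding genes, with 36% ± 1.73 of them marked in T24 and 40.6% ± 2.39 in T24R2. When each list was reduced to its 17203 peaks of highest significance, the difference fell from 4.4 genes to 0.8, and when any 1 library was left out it was 4 to 5. T24R2 lists held more peaks on average. Within a line, marked genes did not rise steadily with list length, as the plot of marked genes against peaks shows. T24R2 replicate 2 had the fewest T24R2 peaks (22671) and 38 marked genes. Replicates 1 and 3 had more peaks (23960 and 23832) and 34 marked genes each. The share of all protein-coding genes marked was also higher in T24R2 replicate 2 than in replicates 1 and 3, so this order is not particular to repair genes. The source of the difference between lines was not tested.

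**Figure D4:**
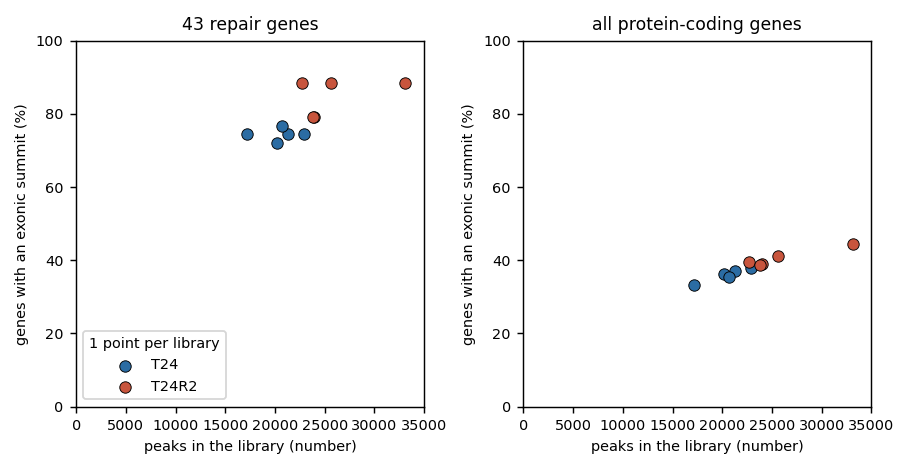
Share of genes with an exonic m6A summit (y axis, %) against the number of peaks in the library (x axis), for the 43 repair genes (left) and 20046 protein-coding genes (right), 1 point per library and color by line. T24 libraries sit at 72.1% to 76.7% and T24R2 libraries at 79.1% to 88.4% on the left, and at 33.3% to 37.8% and 38.8% to 44.6% on the right.

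By gene, MRE11, the nuclease of the MRN complex, and MSH3, a mismatch recognition protein, had a peak in 4 of 5 T24R2 libraries and 0 of 5 T24 libraries (p = 0.0476 each by two-sided Fisher's exact test). Where marked, each had 1 or 2 peaks per library. MRE11 had its peaks in the 3′UTR in 3 libraries and in an exon outside the canonical transcript in 1. The MSH3 region at the end of the coding sequence in exon 24 was called in 3 T24R2 libraries and 0 T24 libraries. These were 2 of 40 marked genes (5%), against 5.8% of 10237 protein-coding genes in this direction, and 0 of 40 were marked more often in T24, against 2.28%. After Benjamini-Hochberg adjustment over all 10237 genes neither passed (adjusted p = 0.589), nor did any gene of the table.

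The other genes of these pathways differed in few cases as well. Of the 46 marked genes on the second list, UIMC1, which brings BRCA1 to damaged chromatin, and TIPIN, a fork protection protein, had a peak in 5 of 5 T24R2 libraries against 0 of 5 for T24 (p = 0.00794 and adjusted p = 0.203 by Fisher's exact test). These were 4.35% of the 46 marked genes, against 5.8% of 10237 protein-coding genes in this direction. No gene of the list was marked more often in T24 at an unadjusted p under 0.05, against 2.28% of the 10237.

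By region, 4 of 126 (3.17%) were called more often in T24R2 at p = 0.0476 by Fisher's exact test and 0 in T24, against 7.11% and 2.09% of all 43676 regions, and none passed after adjustment (adjusted p = 0.517). The first lies in the 5′UTR of FANCG, a core complex gene (chr9:35079443-35080147), in 0 of 5 T24 and 4 of 5 T24R2 libraries, with fold percentiles of 47.9, 23.6, 17.3 and 58.8. Of its 4 summits, 3 were inside the FANCG exon. The second is an exon of FANCL, the ubiquitin ligase, that is not in the canonical transcript (chr2:58227358-58227769), also in 0 and 4 libraries, at 13.4, 35.0, 42.8 and 48.4. The third is in PALB2 exon 4 (chr16:23634978-23635184), in 0 and 4 libraries at 9.43, 36.2, 14.7 and 59.6, between 2 PALB2 regions that were called in all 10. The last is shared with KLC1 and had only 1 of its 9 summits in an exon of XRCC3 (chr14:103711817-103713761), in 1 and 5 libraries at 21.8 in T24 and 81.1, 66.7, 67.2, 79.4 and 64.5 in T24R2. In the libraries that had them, the FANCG, FANCL and PALB2 regions ranked between 9.43 and 59.6.

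No repair gene region was present in every library of one line and absent from the whole of the other, against 4.07% of all regions. When peaks had to cover at least 50% of a region, 1 was, against 2.72%. It lies in an exon outside the canonical NBN transcript (chr8:89924483-89925198) and is shared with OSGIN2. Peaks covered 50% of it in 0 of 5 T24 and 5 of 5 T24R2 libraries (p = 0.00794 and adjusted p = 0.292 by Fisher's exact test). By any overlap it was called in all 10 libraries, with T24 folds of 5.15 to 9.12, so it was not absent from T24. A call in all 10 libraries was reached by 53 regions (42.1%), against 31.5% of all regions in exons of protein-coding genes. Regions found in 1 library numbered 19 (15.1%), against 27.9% of all 43676 regions. Only 25300 of the 43676 have a summit in an exon of a protein-coding gene, so shares over all regions have a broader base than the repair gene regions. Of the 19 repair gene regions found in 1 library, 13 were found in T24R2, 9 of them in replicate 5, which had the most peaks. With equal numbers of peaks per list, 0 of 101 repair gene regions were called more often in T24R2 at an unadjusted p under 0.05, against 4.26% of 31062 regions, and 2 (1.98%) more often in T24, against 3.68%. The 2 were a region of FANCI in an exon outside its canonical transcript, in 5 of 5 T24 and 0 of 5 T24R2 libraries, and one in POLH exon 4, in 5 and 1.

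Among the 53 regions called in all libraries, 33 had a higher mean percentile in T24R2 and 20 in T24. The median difference was 1.71 points toward T24R2, against 4.84 for all 9577 regions, of which 64.4% were higher in T24R2. The exact permutation test of library labels cannot give a p below 0.00794. By this test, 6 (11.3%) were higher in T24R2 at an unadjusted p under 0.05 and 1 (1.89%) in T24, against 10.9% and 3.04% of all regions. After adjustment over the 9577 regions none passed. limma on centred log2 fold, without blocks, called 46 of the 9577 regions higher in T24R2 and 30 in T24 after adjustment, and 0 of the 53. The share of repair gene regions that differed was close to the background. With equal numbers of peaks per list, 38 repair gene regions were called in all libraries, and 2 of them (5.26%) were higher in T24R2 at an unadjusted p under 0.05, in EXO1 and in TP53BP1 exon 17, against 6.59% of 7010 regions.

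TP53BP1, which encodes 53BP1 and steers break repair away from resection, held the 2 largest of these differences. In exon 22 (chr15:43416296-43416567, 8 of 10 summits in that exon) the fold percentiles were 9.11, 21.8, 9.19, 12.6 and 18.1 in T24 and 37.4, 67.6, 74.4, 46.0 and 41.2 in T24R2. Every T24R2 value was above every T24 value, the only case among the 53 regions, against 4.5% of all regions. The means were 14.2 ± 5.62 against 53.3 ± 16.6 (SD, n = 5 each, exact permutation p = 0.00794, adjusted p = 0.176), and the mean folds were 4.29 ± 0.380 and 7.34 ± 1.76. In exon 17 (chr15:43432202-43432623) they were 7.83, 6.30, 34.5, 3.89 and 7.27 in T24 and 68.3, 86.7, 25.8, 29.0 and 89.1 in T24R2. The T24 values lay between 3.89 and 7.83 except in replicate 3, which was above 2 of the T24R2 values. The means were 12 ± 12.7 against 59.8 ± 30.7 (SD, n = 5 each, exact permutation p = 0.0238, adjusted p = 0.263). The third TP53BP1 region called in all libraries, in exon 12, differed by 17.4 points in the same direction (p = 0.0635 by the exact permutation test). These regions are on 1 transcript, so they are not independent.

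Smaller differences toward T24R2 were seen in EXO1, SLX4, NBN and BRCA2. EXO1, the mismatch repair exonuclease, was at 51.8, 22.5, 43.6, 37.1 and 32.2 in T24 and 46.2, 86.9, 72.3, 62.0 and 73.7 in T24R2 in exon 13 (chr1:241878692-241879127). Its means were 37.4 ± 11.1 against 68.2 ± 15.1 (SD, n = 5 each, exact permutation p = 0.0159, adjusted p = 0.231). The 5′ region of SLX4 exon 12 (chr16:3590665-3591327) was at 27.6, 57.9, 16.3, 35.5 and 3.94 in T24 and 39.6, 60.9, 67.6, 60.4 and 77.0 in T24R2. Only the T24 value of 57.9 and the T24R2 value of 39.6 lay within the range of the other line, with means of 28.2 ± 20.4 against 61.1 ± 13.8 (SD, n = 5 each, exact permutation p = 0.0159, adjusted p = 0.231). NBN, the sensor that recruits ATM, was at 35.1, 14.1, 51.9, 17.3 and 8.84 in T24 and 48.5, 49.5, 71.5, 55.0 and 37.8 in T24R2 in exon 11 (chr8:89953266-89953739), with means of 25.5 ± 17.8 against 52.5 ± 12.3 (SD, n = 5 each, exact permutation p = 0.0397, adjusted p = 0.315). The BRCA2 exon 10 region described above had means of 74.2 ± 31.7 against 94.9 ± 2.48 (SD, n = 5 each, exact permutation p = 0.0317, adjusted p = 0.290), and without T24 replicate 3 the difference dropped from 20.7 to 6.70 points.

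REV3L, the catalytic subunit of polymerase zeta, had the only difference toward T24 with an unadjusted p under 0.05 by the exact permutation test. Its exon 14 region (chr6:111367134-111368123) was at 43.4, 84.0, 76.5, 84.2 and 83.2 in T24 and 60.8, 46.7, 66.3, 14.3 and 24.9 in T24R2. The means were 74.3 ± 17.5 against 42.6 ± 22.5 (SD, n = 5 each, exact permutation p = 0.0476, adjusted p = 0.342), and the mean folds were 10.1 ± 1.98 and 6.38 ± 1.65. T24 replicate 1 lay within the T24R2 range, and the other T24 values were above it. The neighbouring exon 13 had 2 regions called in all libraries, with differences, T24R2 minus T24, of 19.0 and -9.38 points (exact permutation p = 0.230 and 0.508). The plot of fold percentiles shows all 7 regions library by library.

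**Figure D5:**
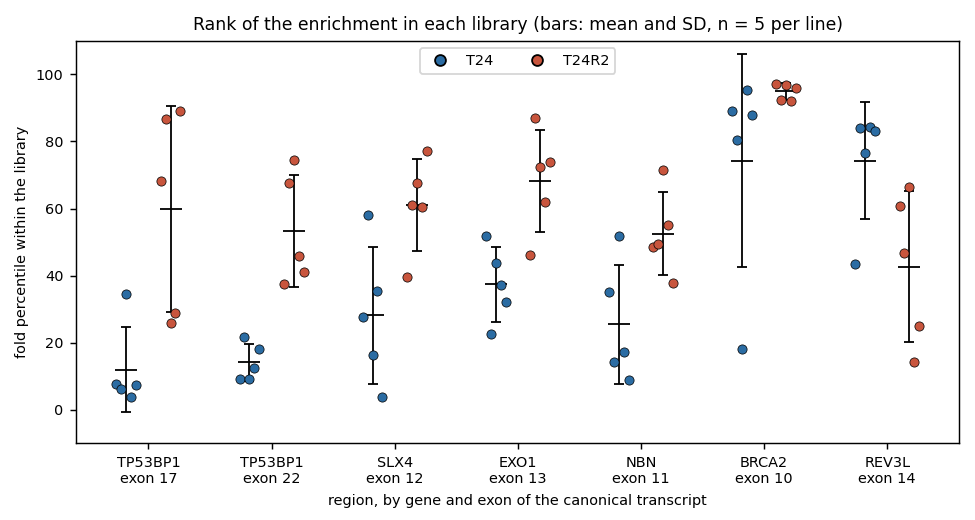
Fold percentile within each library (y axis) of the 7 repair gene regions with an unadjusted exact permutation p under 0.05, by gene and exon (x axis), 1 point per library, with bars for the mean and SD of 5 libraries per line. In TP53BP1 exon 22 the lines do not overlap, and in the other 6 regions at least 1 library lies within the range of the other line. None passed adjustment over 9577 regions.

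MeRIP-seq peaks in bulk RNA reflect both the amount of a transcript and the share of it that is methylated, and a change in some cells cannot be told apart from a change in all. For regions that overlap another gene (17 of 126, among them those of FANCA with ZNF276, FANCL with VRK2 and NBN with OSGIN2), the source gene cannot be told apart without strand.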

How the data were processed

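MeRIP-seq peak lists of 5 T24 and 5 T24R2 pull-down libraries were used. Per the study's methods and the submitters' processing notes, the authors aligned reads with STAR 2.7.0 to hg38, kept uniquely mapped reads without duplicates with SAMtools 1.10, and called peaks of pull-down over input in each library with MACS2 3.0.0a6. The authors' lists give each peak a fold enrichment (ratio), a −log10 p-value, a −log10 q-value and a score, and the deposited region list is the merge of the lists. Reads and counts were not used here, so depth is unknown, the study's count tests were not run, and no interval that needs depth is given.

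Summits were assigned to exons of GENCODE 44 genes with bedtools 2.31.1, and exon numbers refer to the Ensembl canonical transcript. Any overlap with a peak counted a region as called in that library. Presence was tested by two-sided Fisher's exact tests and fold percentile by a two-sided exact permutation test, adjusted by Benjamini-Hochberg over all regions or genes. limma 3.58.1 on centred log2 fold served as an alternative. Full library values are given for regions with an unadjusted p under 0.05 in either region test and for the 12 regions called in all 10 libraries with the highest median percentile. The members and lists were chosen with earlier results of these data known. Both tests were tested on simulated data. Same-numbered libraries correlated at -0.03 to 0.111 and others at -0.134 to 0.14, and no label ties the numbers, so the fits were not paired. No rows were identical between lists. Some overlapping genes and sequence windows are not reported here.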

Additional observations from a re-analysis of the deposited data

Results flagged for a closer look

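In 5 of 54 groups of 5 libraries, 1 library stood far from the other 4 by Dixon's ratio, where chance gives about 5% of groups. The BRCA2 exon 10 region (32332719) had a fold percentile of 18.2 in T24 replicate 3 against 80.3 to 95.4 in the other T24 libraries. The TP53BP1 exon 17 region (43432202) was at 34.5 in T24 replicate 3 against 3.89 to 7.83 in the others. The REV3L exon 14 region (111367134) was at 43.4 in T24 replicate 1 against 76.5 to 84.2. For XRCC2, the CDS region (152648612) was at 78.3 in T24 replicate 2 against 91.6 to 96.1, and the 3′UTR region (152646252) at 61.3 in T24R2 replicate 5 against 83.0 to 87.9. What sets these libraries apart was not tested.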

How the results depend on the processing

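Unless stated, counts are regions or genes at an unadjusted p under 0.05, and none passed adjustment among repair genes under any setting tried. With peaks of −log10 q of at least 10, regions called more often in T24R2 numbered 2 rather than 4 (6.97% of all regions), and these were other regions, EXO1 exon 13 and TP53BP1 exon 22, each in 1 of 5 T24 and 5 of 5 T24R2 libraries. Genes numbered 1 for T24R2 (5.97% of all genes) rather than 2. Fold percentile differences numbered 0 for T24R2 and 0 for T24 (9.32% and 3.13% of all regions) rather than 6 and 1. None of those 7 regions was then called in all 10 libraries, and only 17 repair gene regions were. The share of peaks in canonical exons of at least 400 nt was then 93.3% rather than 87.6% and the sense minus antisense DRACH share 32.5 rather than 23.2 points. With equal numbers of peaks, regions numbered 0 for T24R2 and 2 for T24 (4.26% and 3.68% of all regions), genes 1 and 1 (3.37% and 3.11% of all), fold percentile differences 2 and 0 (6.59% and 5.59% of all), and marked genes differed by 0.8 rather than 4.4. With canonical exons alone, regions numbered 2 and genes 1 for T24R2, and CDS held 86.8% and 3′UTR 11.3% of peaks. Counting a library by summits in member exons left 2 regions for T24R2. Counting a library where its peaks covered at least 50% of the region gave 6 for T24R2 (7.05% of all regions), in CHEK1, XRCC3, MSH6, NBN and 2 in SLX4, without those of FANCG, FANCL and PALB2. By any overlap, those of MSH6, NBN and SLX4 exon 14 were called in all 10 libraries. For fold, centred log2 values gave 3 regions higher in T24R2 and 2 in T24. limma without blocks gave 3 and 2 of 53 repair gene regions, against 728 and 609 of all 9577 regions. With a DRACH window of 25 nt, 80.6% had a sense match (35.5 points above antisense), and GGAC alone gave 39.4%. The exon cutoff of 300 nt, added after seeing the data, left 3 genes with a long internal exon and no region in all libraries, against 0. Leaving out each replicate gave 4 to 8 regions for T24R2 and 0 to 2 for T24, 4 to 6 and 0 to 2 fold percentile differences, and 2 to 4 and 0 to 1 genes. For T24R2 the count was 7 regions without T24R2 replicate 1 and 8 without replicate 2 or 3, and 4 genes without replicate 3. With a T24R2 library left out, 3 of 4 against 0 of 5 libraries already gives p = 0.0476 by Fisher's exact test. Shares over all features are not given for leaving out replicates, canonical exons, summits or centred log2 values without limma, so these counts cannot be set against background. Both TP53BP1 differences and those of EXO1 and SLX4 stayed under 0.05 whichever library was left out. BRCA2 lost this without any 1 of the T24R2 libraries, NBN without T24 replicate 1, 2, 4 or 5 or T24R2 replicate 2, 3 or 4, and REV3L without T24 replicate 2, 3, 4 or 5 or T24R2 replicate 2, 4 or 5. By limma without blocks, both TP53BP1 differences and those of SLX4 and REV3L stayed under 0.05, and EXO1, BRCA2 and NBN did not. With the replicate block, SLX4 did not either. With equal numbers of peaks, SLX4, BRCA2 and NBN were above 0.05 by the exact permutation test. TP53BP1 exon 22 and REV3L then had no value. The 7 regions with a fold percentile p under 0.05 kept their direction under each alternative that gave a value. Of the other 11 named regions with a fold percentile, 7 changed sign under at least 1 alternative, in BLM, FANCA, PMS1, REV1, the SLX4 3′UTR and both in XRCC2, and none of these had p under 0.05 under any.

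The same replicate numbers in both lines did not pair the libraries, and only 1 of 5 T24 libraries correlated best with its own number. With a replicate block, sign-flip tests, whose smallest p is 0.0625, gave 0 regions and 0 genes. limma with the replicate block gave 2 repair gene regions higher in T24R2 and 3 in T24, against 3 and 2 without it. Over all 9577 regions, limma with the block gave 740 and 605. The lists hold called peaks alone, so a region missed at low depth cannot be told from an unmethylated one.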

Other observations

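Some peaks lay within the bodies of the repair genes but in no exon of theirs. There were 13.2 ± 5.63 such intronic summits per T24 library and 19.0 ± 7.42 per T24R2 library (SD, n = 5 each), with ranges of 6 to 20 and 11 to 30 that overlapped. They formed 48 regions in 18 genes. ATM had none in exons and 1 to 6 in introns in each library, and FANCD2 had exactly 1 intronic summit in all 10 libraries. One intronic region of FANCC (chr9:95106188-95106459) was found in 4 of 5 T24R2 libraries and 0 of 5 T24 libraries (p = 0.0476 and adjusted p = 0.517 by Fisher's exact test). It was the only 1 of the 48 called more often in T24R2, against 7.11% of all 43676 regions, and 0 were called more often in T24, against 2.09%. RAD18 had no summit in exons or introns.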
